A study of Mus musculus with 3 samples.

Results

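The genes described here encode nucleolin and 8 other proteins of the nucleolus: Ncl, Npm1, Fbl, Nop56, Nop58, Nop2, Nolc1, Ubtf and Nop14. They were chosen by name, and a peak was taken for a gene when the deposited list gave it that gene name and a distance of at most 2000 bp from the transcription start site (TSS). By this rule 8 of the 9 genes had a peak, with 23 peaks in all, among 9080 genes and 21833 such promoter peaks in the 3 lists. Nop56 had no peak under its own name and is described through the peak that lies over its TSS. The peaks mark trimethylation of lysine 4 of histone H3 (H3K4me3), a mark of active promoters, measured with the antibody ab8580 by ChIP-seq in the mouse lung fibroblast line MLg. In TGFB1+miR-9-LOF, the cells were transfected with 60 nM of antagomiR probes against the microRNA miR-9 (loss-of-function, LOF) and treated with the cytokine TGFB1 at 5 ng/ml for 4 h, starting 20 h after transfection. In TGFB1, the cells were treated with TGFB1 at the same dose and time, and in Ctrl they were not treated with it. All cells were harvested at 24 h. The labels name a negative control probe without tying it to a library, and the text of the study describes the cells without miR-9 antagomiR as transfected with Ctrl antagomiR. The comparisons ask how the peaks at these promoters differ with TGFB1 and, under TGFB1, with loss of miR-9. Each group had 1 library, so the values below have no replicate check and no p-value, and differences are given in bp and beside the same measure over all genes.

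The nucleolus is the part of the nucleus in which ribosomal RNA (rRNA) is transcribed by RNA polymerase I, trimmed, modified and packed into ribosomal subunits. Nucleolin and nucleophosmin are abundant proteins of its outer layers, fibrillarin sits in the layer in which rRNA is modified, and the Pol I factor UBF keeps the rRNA genes open. Genes of this kind are active in growing cells of nearly every type, and their promoters carry H3K4me3 in most of them. The MLg libraries carried promoter peaks at fibroblast genes, with 5 of 11 listed markers in TGFB1+miR-9-LOF and 8 of 11 in both TGFB1 and Ctrl. Col3a1, Thy1 and Tcf21 had none in any library. Of 6 epithelial and 3 endothelial markers, 0 had a promoter peak in any of the 3 libraries. Of 4 immune markers, 0 had one in TGFB1+miR-9-LOF, and Cd14 alone had one in TGFB1 and in Ctrl.

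The promoters on which the lengths below turn are shown as 300 bases of mouse build GRCm38.p6 (RefSeq), 250 before and 50 after a RefSeq start, on the strand of the gene. For Ncl, on chr1:86359406-86359705, and for 1 of several starts of Ubtf, on chr11:102317822-102318121, capitals mark matches on either strand of a G-quadruplex pattern. The pattern is 4 runs of at least 3 G with loops of 1 to 7 bases. This Ubtf window was chosen for its matches (4), while another Ubtf window held 1 and the rest held 0. G-quadruplexes, folded DNA structures of G-rich strands, were a subject of the study beside H3K4me3. For Nop56 (chr2:130274162-130274461), Nolc1 (chr19:46075597-46075896) and Nop58 (chr1:59684756-59685055), capitals mark the bases that were still under a peak in TGFB1+miR-9-LOF, while all 300 were under a peak in TGFB1. Of the other members, Nop2 and Nop14 had RefSeq windows that lay whole under the peak of all 3 libraries. The microRNA targeted by the antagomiR is given from RefSeq too, with its seed, bases 2 to 8, in capitals. It is encoded at 3 loci, Mir9-1 on chromosome 3, Mir9-3 on chromosome 7 and Mir9-2 on chromosome 13.
miR-9-5p: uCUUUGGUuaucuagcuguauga
Ncl: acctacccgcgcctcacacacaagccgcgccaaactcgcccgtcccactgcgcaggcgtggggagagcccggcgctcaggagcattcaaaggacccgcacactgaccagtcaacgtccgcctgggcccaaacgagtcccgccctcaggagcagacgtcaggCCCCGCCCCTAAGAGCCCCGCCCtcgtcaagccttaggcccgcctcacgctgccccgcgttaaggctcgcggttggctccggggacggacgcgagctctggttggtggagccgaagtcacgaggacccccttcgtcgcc
Ubtf: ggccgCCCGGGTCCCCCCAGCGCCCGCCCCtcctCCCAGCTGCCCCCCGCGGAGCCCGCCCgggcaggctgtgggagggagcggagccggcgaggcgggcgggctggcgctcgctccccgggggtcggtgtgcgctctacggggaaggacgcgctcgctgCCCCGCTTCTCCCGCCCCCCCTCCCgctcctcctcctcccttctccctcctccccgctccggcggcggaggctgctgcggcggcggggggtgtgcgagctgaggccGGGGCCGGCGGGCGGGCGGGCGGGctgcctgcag
Nop56: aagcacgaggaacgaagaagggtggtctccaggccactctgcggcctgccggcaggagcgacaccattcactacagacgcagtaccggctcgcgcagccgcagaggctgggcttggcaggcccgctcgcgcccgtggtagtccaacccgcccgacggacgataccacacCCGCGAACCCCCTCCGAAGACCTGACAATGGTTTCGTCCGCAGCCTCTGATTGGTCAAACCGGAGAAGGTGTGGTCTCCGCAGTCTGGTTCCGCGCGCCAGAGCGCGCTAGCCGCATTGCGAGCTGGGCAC
Nolc1: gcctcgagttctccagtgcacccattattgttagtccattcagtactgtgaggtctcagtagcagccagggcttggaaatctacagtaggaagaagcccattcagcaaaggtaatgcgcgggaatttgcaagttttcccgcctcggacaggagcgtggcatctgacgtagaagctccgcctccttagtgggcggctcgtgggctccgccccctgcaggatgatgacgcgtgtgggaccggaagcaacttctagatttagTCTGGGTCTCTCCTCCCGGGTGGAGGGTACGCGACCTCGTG
Nop58: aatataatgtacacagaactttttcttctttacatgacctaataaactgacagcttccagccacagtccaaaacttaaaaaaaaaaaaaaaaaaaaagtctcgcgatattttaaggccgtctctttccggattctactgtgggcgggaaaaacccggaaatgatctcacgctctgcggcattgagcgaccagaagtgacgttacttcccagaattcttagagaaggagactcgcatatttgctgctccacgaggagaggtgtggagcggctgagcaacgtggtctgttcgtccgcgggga

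The lists that these genes belong to differed in size. TGFB1+miR-9-LOF held 4959 peaks with a median promoter peak length of 1347 bp, TGFB1 held 9116 peaks with a median of 1756 bp, and Ctrl held 8727 peaks with a median of 1699 bp. How deeply each library was sequenced was unknown here, and with 1 library a group, depth and ChIP efficiency cannot be told apart from the treatment. Likewise, in bulk chromatin fewer marked cells and less mark per cell cannot be told apart. The 7 member peaks of TGFB1+miR-9-LOF had a median length of 1727 bp, the 8 of TGFB1 one of 2393 bp and the 8 of Ctrl one of 2019 bp. They were thus long for their lists, with a median rank at percentile 87.7 of promoter peak length in TGFB1+miR-9-LOF, 92.8 in TGFB1 and 81.9 in Ctrl.

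**Figure D1:**
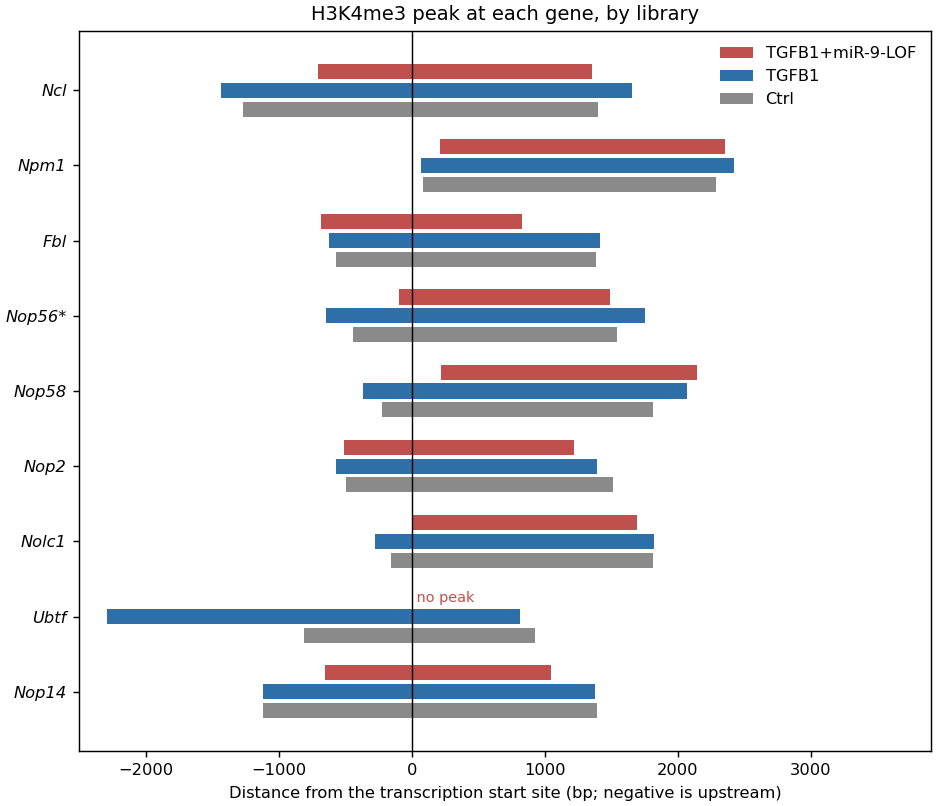
Position of each member's H3K4me3 peak (bars) along the distance from its TSS in bp, with upstream to the left, in TGFB1+miR-9-LOF, TGFB1 and Ctrl. Most peaks reached further downstream than upstream of the TSS, the bars of Npm1 began downstream of it in all 3 libraries, and Ubtf was without a peak in the TGFB1+miR-9-LOF list; the asterisk marks Nop56, drawn from the peak that covers its annotated TSS under another gene name.

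Ncl encodes nucleolin, an RNA- and DNA-binding protein that takes part in rRNA transcription and early processing. Its peak (chr1:86357800-86360892 in TGFB1, minus strand, build mm10) was 2060 bp long in TGFB1+miR-9-LOF, 3093 bp in TGFB1 and 2669 bp in Ctrl. It was among the longest promoter peaks in each list, at rank 108 of 4818 in TGFB1+miR-9-LOF, 44 of 8669 in TGFB1 and 151 of 8346 in Ctrl. The peak was 424 bp longer in TGFB1 than in Ctrl, a log2 ratio of 0.21 that was higher than that of 79.7% of genes. It was 1033 bp shorter in TGFB1+miR-9-LOF than in TGFB1, a log2 ratio of -0.59, and this was the largest loss in bp among the 7 members with a peak in both libraries. Against a median of -0.48 over all genes, the Ncl ratio was lower by 0.10 and stood at percentile 34.2. Its length in TGFB1+miR-9-LOF was also 609 bp below that in Ctrl.

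The upstream edge of the Ncl peak lay 704 bp from the TSS in TGFB1+miR-9-LOF, 1437 bp in TGFB1 and 1273 bp in Ctrl. Of the bases lost in TGFB1+miR-9-LOF against TGFB1, 733 were upstream and 300 downstream. In bp, the upstream loss was greater than that of all but 4.10% of genes, though a longer peak has more bp to lose. The log2 ratio of the whole Ncl peak stood at percentile 34.2. The downstream edge had reached 260 bp further in TGFB1 than in Ctrl. The promoter is shared: the noncoding gene C130036L24Rik starts on the opposite strand 129 bp upstream of the TSS that the list gives for Ncl, at base 122 of the sequence shown, and its start lay under the peak in all 3 libraries. The score that the deposited list gives each peak did not rank Ncl as high as its length did. Ncl scored 48 in TGFB1+miR-9-LOF, 105 in TGFB1 and 106 in Ctrl, which put it at percentile 53.9 of promoter peaks in TGFB1+miR-9-LOF, 63.4 in TGFB1 and 75.9 in Ctrl. Scores are not scaled between libraries and are compared only by their rank.

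Npm1 encodes nucleophosmin, a histone and ribosome chaperone of the outer nucleolar layer. Its peak (chr11:33160788-33163138 in TGFB1, minus strand) was 2145 bp long in TGFB1+miR-9-LOF, 2351 bp in TGFB1 and 2196 bp in Ctrl, the narrowest range of any member with a peak in all 3 lists. The log2 ratio was -0.13 for TGFB1+miR-9-LOF over TGFB1, at percentile 93.4 of genes, and 0.10 for TGFB1 over Ctrl. Npm1 was thus the longest member peak in TGFB1+miR-9-LOF, where Ncl, the longest in Ctrl, came next. The peak lay in the body of the gene. It began 209 bp downstream of the deposited TSS in TGFB1+miR-9-LOF, 68 bp in TGFB1 and 87 bp in Ctrl. Other annotated starts of Npm1, 129 to 134 bp downstream of that TSS, were under the peak in TGFB1 and in Ctrl and outside it in TGFB1+miR-9-LOF. The deposited annotation placed the peak centre in intron 1 in all 3 libraries.

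Fbl, Nop56 and Nop58 encode core proteins of the box C/D particles, in which small nucleolar RNAs guide the methylation of rRNA. Fibrillarin, the Fbl product, is the methyltransferase itself, and NOP56 and NOP58 form the scaffold that holds the guide RNA. The Fbl peak (chr7:28169123-28171161 in TGFB1, plus strand) was 1508 bp long in TGFB1+miR-9-LOF, 2039 bp in TGFB1 and 1957 bp in Ctrl. TGFB1 differed from Ctrl by 82 bp at Fbl, a log2 ratio of 0.06 that equals the median over all genes at this precision. In TGFB1+miR-9-LOF the Fbl peak was 531 bp shorter than in TGFB1, with a log2 ratio of -0.44. All of this loss was downstream, where the edge receded by 588 bp, while the upstream edge lay 57 bp further out. An upstream edge further out was found at 9.18% of genes in this comparison. Its score percentile was 41.2 in TGFB1+miR-9-LOF, 93.0 in TGFB1 and 94.5 in Ctrl. Fbl shares its promoter with Gm31024, which starts on the other strand 121 bp upstream.

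The Nop58 peak (chr1:59684640-59687073 in TGFB1, plus strand) was 1926 bp long in TGFB1+miR-9-LOF, 2434 bp in TGFB1 and 2034 bp in Ctrl. It was 400 bp longer in TGFB1 than in Ctrl (log2 0.26, percentile 85.0), with 143 bp added upstream and 257 bp downstream. In TGFB1+miR-9-LOF it was 508 bp shorter than in TGFB1 (log2 -0.34), and the loss was on the opposite side from that at Fbl. The upstream edge receded by 582 bp and the downstream edge lay 74 bp further out, which 10.2% of genes showed. The Nop58 peak therefore began 216 bp downstream of the TSS in TGFB1+miR-9-LOF, and 0 of the 300 bases printed for Nop58 were under it. The peak began 366 bp upstream of the TSS in TGFB1 and 223 bp upstream in Ctrl.

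Nop56 had no peak under its own name because the lists assigned the peak over its TSS to Snord110, a small nucleolar RNA gene inside Nop56. This peak (chr2:130273784-130276182 in TGFB1, plus strand) was 1585 bp long in TGFB1+miR-9-LOF, 2399 bp in TGFB1 and 1990 bp in Ctrl. The log2 ratio was 0.27 for TGFB1 over Ctrl and -0.60 for TGFB1+miR-9-LOF over TGFB1. The upstream edge stood 99 bp from the first annotated Nop56 start in TGFB1+miR-9-LOF, 646 bp in TGFB1 and 445 bp in Ctrl, and 131 of the 300 bases printed were still covered in TGFB1+miR-9-LOF. In the counts of peaks below Nop56 is left out unless stated, since the rule goes by the deposited name. The counts of promoter sequence windows and of genes with an annotated start under any peak include it.

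Nop2 encodes a methyltransferase that modifies a cytosine of the large rRNA in human and yeast cells. Its peak (chr6:125131314-125133271 in TGFB1, plus strand) was 1727 bp long in TGFB1+miR-9-LOF, 1958 bp in TGFB1 and 2004 bp in Ctrl, and it was 1 of 2 members with a shorter peak in TGFB1 than in Ctrl, by 46 bp. Its score percentile was 74.8 in TGFB1+miR-9-LOF, 98.7 in TGFB1 and 93.3 in Ctrl. In TGFB1+miR-9-LOF the peak was 231 bp shorter than in TGFB1 (log2 -0.18, percentile 89.3), 60 bp of it upstream and 171 bp downstream. Nolc1 encodes a chaperone of small nucleolar ribonucleoproteins (snoRNPs) that shuttles between nucleolus and Cajal body. The Nolc1 peak (chr19:46075570-46077665 in TGFB1, plus strand) was 1685 bp long in TGFB1+miR-9-LOF, 2096 bp in TGFB1 and 1966 bp in Ctrl. Its score stood at percentile 98.6 in TGFB1+miR-9-LOF, 98.5 in TGFB1 and 98.7 in Ctrl, the most even rank of any member. The upstream edge of Nolc1 lay 8 bp downstream of the deposited TSS in TGFB1+miR-9-LOF, against 278 bp upstream of it in TGFB1 and 154 bp upstream in Ctrl, so that 41 of the 300 bases printed for Nolc1 remained covered.

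Ubtf encodes UBF, the factor that binds along the rRNA genes and is needed for transcription by RNA polymerase I. Of the 8 members with a peak under their own name, it was the only 1 without a peak in TGFB1+miR-9-LOF, and no peak of another name overlapped its TGFB1 peak there. Its peak (chr11:102316473-102319581 in TGFB1, minus strand) was 3109 bp long in TGFB1 and 1736 bp in Ctrl, a difference of 1373 bp and a log2 ratio of 0.84. This ratio was above that of 99.7% of genes, and the TGFB1 peak of Ubtf was the 39th longest of 8669. The change was upstream: the edge lay 1481 bp further out in TGFB1, beyond 99.9% of genes, while the downstream edge was 108 bp further in. The TGFB1 peak covered 7 of 8 annotated Ubtf starts, among them a start 1808 bp upstream of the deposited Ctrl TSS, and the Ctrl peak covered 6 of 8. Although long, the peak had a low score. Ubtf scored 51 in TGFB1, at percentile 11.0, and 69 in Ctrl, at percentile 35.6.

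Nop14 encodes a subunit of the small subunit processome, the large particle that forms on nascent rRNA. Its peak (chr5:34658769-34661265 in TGFB1, minus strand) was 1703 bp long in TGFB1+miR-9-LOF, 2497 bp in TGFB1 and 2512 bp in Ctrl. TGFB1 and Ctrl thus differed by 15 bp, the smallest difference of any member. In TGFB1+miR-9-LOF the peak was 794 bp shorter than in TGFB1 (log2 -0.55), with 462 bp lost upstream and 332 bp downstream. Of the members with a peak under their own name in both libraries, Nop14 and Ncl had log2 ratios below the median of all genes in this comparison, as had Nop56 through the peak at its TSS. Nop14 shares its promoter with Grk4, which encodes a kinase of G protein-coupled receptors. Grk4 starts on the opposite strand 231 bp upstream, under the peak in all 3 libraries.

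**Figure D2:**
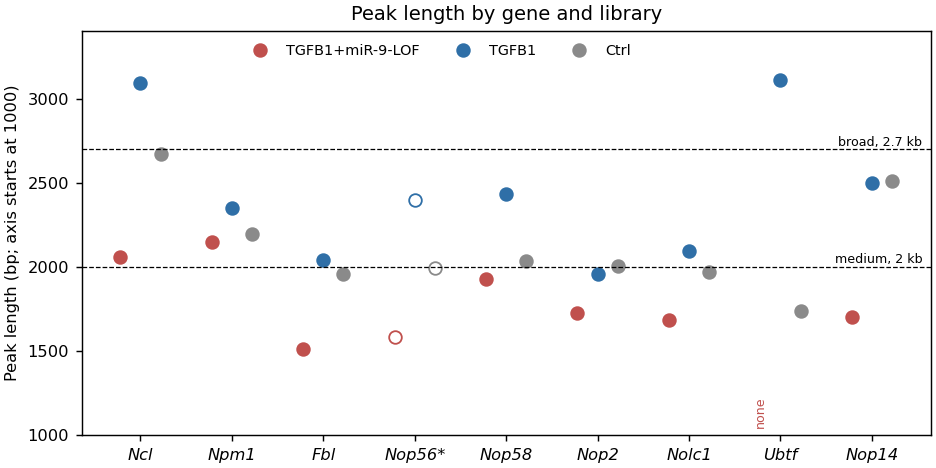
Peak length in bp (vertical axis, from 1000 bp) of each gene in TGFB1+miR-9-LOF, TGFB1 and Ctrl, with 1 point per library and dashed lines at the limits of medium (2 kb) and broad (2.7 kb) peaks. Only Ncl and Ubtf pass the 2.7 kb limit, in TGFB1 alone; open circles are Nop56 through the peak at its TSS.

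By length, peaks of at least 2.7 kb are called broad, those from 2 kb up to that limit medium, and shorter ones narrow. These limits are the study's, which took them from quartiles of peak size in its own merged list. Among the member peaks, 0 of 7 were broad, 2 medium and 5 narrow in TGFB1+miR-9-LOF. In TGFB1, 2 of 8 were broad (Ncl and Ubtf), 5 medium and 1 narrow (Nop2), and in Ctrl 0 of 8 were broad, 5 medium and 3 narrow. Among all promoter peaks, 0.0623% were broad and 3.20% medium in TGFB1+miR-9-LOF, 2.08% and 21.7% in TGFB1, and 1.57% and 17.8% in Ctrl. These counts depend on the limits: with the median (1828 bp) and upper quartile (2075 bp) of the merged regions in their place, 1 member peak was broad in TGFB1+miR-9-LOF, 6 in TGFB1 and 3 in Ctrl. Lower limits make more peaks of any gene broad, and the shares of all promoter peaks under them were not computed. With the limits of 2 and 2.7 kb, Ncl and Npm1 were the medium peaks that remained in TGFB1+miR-9-LOF. Fbl, Nop58, Nolc1 and Nop14 were medium in TGFB1 and narrow in TGFB1+miR-9-LOF. Several peaks sat close to the lower limit, with Nop2 at 2004 bp and Nop58 at 2034 bp in Ctrl just above it and Nolc1 at 1966 bp and Fbl at 1957 bp in Ctrl just below it.

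Across the members, the TGFB1 peak was longer than the Ctrl peak at 6 of 8 genes, beside 64.2% of 7849 genes. The median log2 ratio of the members was 0.10, against 0.06 over all genes, whose middle quartiles ran over -0.05 to 0.18. Ubtf alone was longer by at least 0.32 on the log2 scale (1 of 8, beside 10.2% of genes). The other 7 ratios lay between -0.03 and 0.26. The member count is near the background, and only the Ubtf value stands far from the bulk of genes in the plot of ratios.

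For TGFB1+miR-9-LOF over TGFB1, 7 of 7 members with a peak in both libraries were shorter in TGFB1+miR-9-LOF, beside 98.4% of 4603 genes. By at least 0.32 on the log2 scale, 4 of 7 were shorter (Ncl, Nop14, Fbl and Nop58), beside 72.8%. The median log2 ratio of the members was -0.34, against -0.48 over all genes. Relative to that shift, Npm1 was higher by 0.35, Nop2 by 0.30, Nolc1 by 0.17, Nop58 by 0.14 and Fbl by 0.05. Ncl and Nop14 were lower by 0.10 and 0.07. The median over all genes covers only those with a peak in both libraries, and the ratio varied with the TGFB1 score, as given below. Ubtf, 1 of 8 members with a TGFB1 peak, was without a promoter peak in TGFB1+miR-9-LOF, beside 46.3% of 8572 genes. With only peaks that score at least 50 in their list, 4 of 8 members kept a peak (Npm1, Nop58, Nop2 and Nolc1), beside 24.0% of genes, and Ncl, Fbl and Nop14 dropped out in TGFB1+miR-9-LOF. Compared with Ctrl, 7 of 7 members were shorter in TGFB1+miR-9-LOF, beside 96.3% of 4589 genes, 3 of 7 by at least 0.32 on the log2 scale (Ncl, Fbl and Nop14), beside 65%, and 1 of 8 was without a peak, beside 44.4%. Both comparisons of TGFB1 use the same TGFB1 list, so its values enter both.

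**Figure D3:**
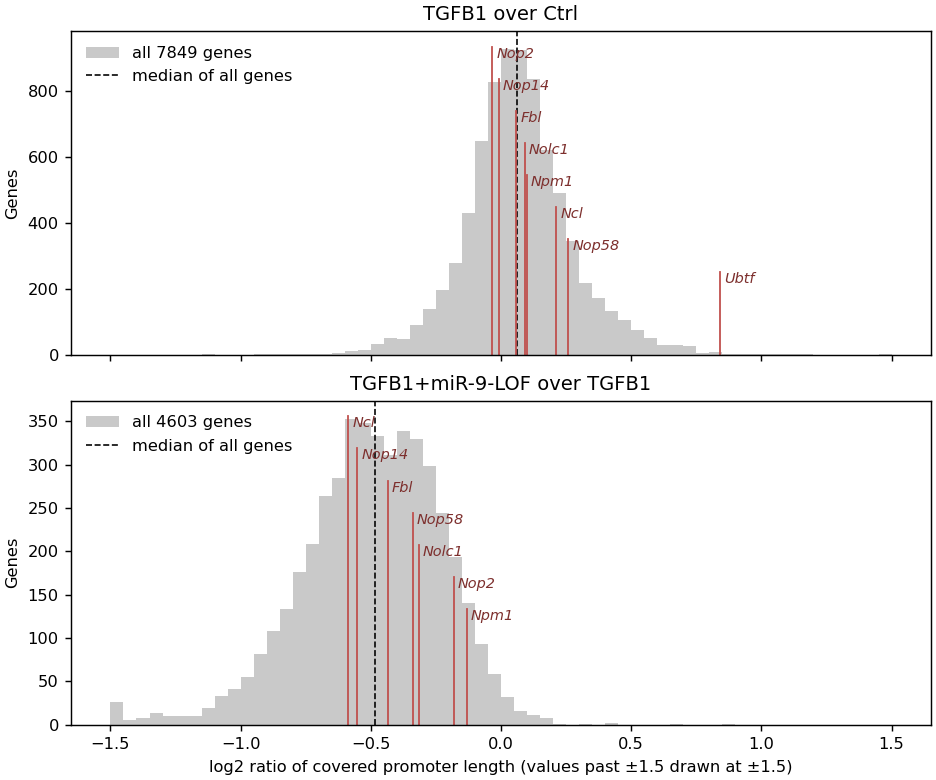
Histograms of the log2 ratio of covered promoter length over all genes (gray) for TGFB1 over Ctrl and for TGFB1+miR-9-LOF over TGFB1, with the members as red lines and the median of all genes dashed. Ubtf, at 0.84, stands to the right in the upper panel, and the 7 members of the lower panel lie between -0.59 and -0.13 around a median of -0.48.

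Whether a peak was kept in TGFB1+miR-9-LOF varied over all genes with the score in TGFB1. When genes were put into 5 bins by their TGFB1 score, 11.9% of genes in the lowest bin (25 to 61) kept a promoter peak, and 34.3%, 56.5%, 76.4% and 90.8% did so in the higher bins. Ubtf, with a score of 51, was in the lowest bin. Ncl and Nop14 were in the bin of 102 to 125, and Npm1, Fbl, Nop58, Nop2 and Nolc1 were in the highest (126 and above). The kept members therefore lay in bins in which most genes kept a peak, and the lost member in the bin in which few did. Among kept genes, the median log2 ratio of TGFB1+miR-9-LOF over TGFB1 was -0.40 in the highest bin and -0.51 in the bin of 102 to 125. In the highest bin, Fbl (-0.44) was below that median, and Nop58 (-0.34), Nolc1 (-0.31), Nop2 (-0.18) and Npm1 (-0.13) were above it. Ncl (-0.59) and Nop14 (-0.55) were below the median of their bin. Of the TGFB1 peak, the part under a TGFB1+miR-9-LOF peak was 66.6% at Ncl and 68.2% at Nop14, 71.2% at Fbl, 76.1% at Nop58, 80.4% at Nolc1, 88.2% at Nop2 and 91.2% at Npm1.

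The edges of the member peaks did not move alike. These are edges of called peaks, and how closely they place the mark was not tested. In TGFB1 against Ctrl, the upstream edge was further out at 7 of 8 members (59.3% of genes) and the downstream edge at 5 of 8 (58.0%). In TGFB1+miR-9-LOF against TGFB1, the upstream edge was further in at 6 of 7 members (90.7% of genes) and the downstream edge at 6 of 7 (89.7%). The median upstream change of the members was -286 bp, against -259 bp over genes, and the median downstream change was -171 bp, against -235 bp. Fbl and Nop58 were the exceptions, each with the outward edge on a different side.

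**Figure D4:**
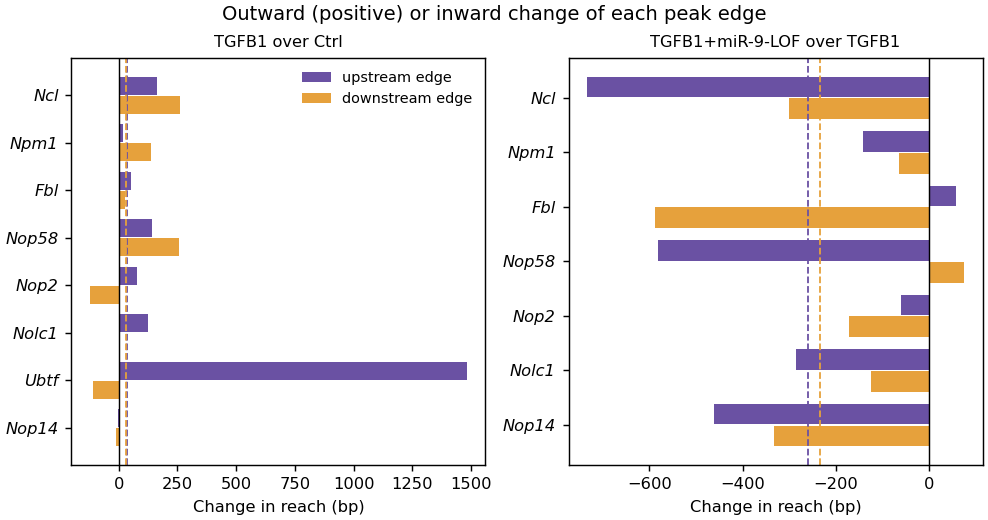
Change in bp of the upstream (purple) and downstream (orange) edge of each member peak, for TGFB1 over Ctrl (left) and TGFB1+miR-9-LOF over TGFB1 (right), with positive values outward and dashed lines at the medians over all genes. The upstream bar of Ubtf reaches 1481 bp on the left, and on the right the upstream bar of Ncl reaches -733 bp.

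The deposited TSS of Nolc1, Nop58 and Npm1 lay outside their peak in TGFB1+miR-9-LOF. At Nolc1 the peak edge was only 8 bp past it, and all 4 annotated Nolc1 starts were under the peak. The deposited TSS was covered at 4 of 7 members in TGFB1+miR-9-LOF, beside 73.9% of promoter peaks. It was covered at 7 of 8 members in TGFB1 (92.4% of promoter peaks) and at 7 of 8 in Ctrl (90.3%), with Npm1 as the exception in both. The peak centre lay downstream of the TSS at 7 of 7 members in TGFB1+miR-9-LOF, at 7 of 8 in TGFB1 and at 8 of 8 in Ctrl, beside 88.7% of promoter peaks in TGFB1+miR-9-LOF, 89.4% in TGFB1 and 89.3% in Ctrl. In TGFB1 the exception was Ubtf.

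The bases under the peaks differed widely among the members. Ubtf was the most GC-rich, with 71.6% G and C in TGFB1 and 74.3% in Ctrl, both above the 99th percentile of promoter peaks. Nop58 was the poorest, with 43.7% in TGFB1+miR-9-LOF, 44.8% in TGFB1 and 46.6% in Ctrl, and Npm1 followed with 46.6% in TGFB1+miR-9-LOF, 47.0% in TGFB1 and 47.1% in Ctrl. Ncl, with the shortest of its peaks the richest, had 60.6% in TGFB1+miR-9-LOF, 56.7% in TGFB1 and 58.1% in Ctrl. The median promoter peak had 56.5% in TGFB1+miR-9-LOF, 55.3% in TGFB1 and 55.5% in Ctrl. The G-quadruplex pattern matched 9 times in the TGFB1 peak of Ubtf and 5 times in its Ctrl peak, counted without overlap on both strands. That was 2.89 matches per kb in TGFB1, at percentile 97.3. Ncl had 1 match in TGFB1+miR-9-LOF, 3 in TGFB1 and 1 in Ctrl. Fbl, Nop58 and Nop14 had 0 in every library. At least 1 match was found in 3 of 7 member peaks in TGFB1+miR-9-LOF, 5 of 8 in TGFB1 and 5 of 8 in Ctrl, beside 55.0% of promoter peaks in TGFB1+miR-9-LOF, 66.3% in TGFB1 and 65.1% in Ctrl. A longer peak holds more sequence, and a match is a description of letters.

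**Figure D5:**
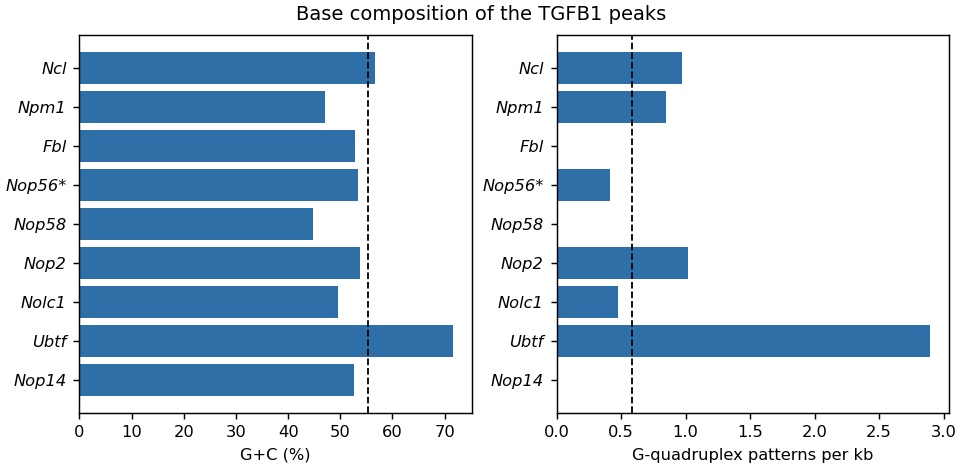
Share of G and C in percent (left) and matches of the G-quadruplex pattern per kb (right) in the TGFB1 peak of each gene, with dashed lines at the median of all TGFB1 promoter peaks. Ubtf has the longest bar in both panels, with 71.6% and 2.89 per kb, and the right panel has no bar for Fbl, Nop58 and Nop14; the asterisk marks Nop56 through the peak at its TSS.

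RefSeq windows of 300 bases were found for 7 of the 9 genes, 12 windows in all because Ubtf has several starts, and not for Npm1 and Fbl. TATAAA was in 0 of the 12 windows on either strand, beside 13.6% of 32851 windows. CCAAT was in 2 of 12 (Nop56 and a start of Ubtf), beside 37.4%. The E-box CACGTG, a palindrome, was in 1 (Nop2), beside 7.15%. CTTTGGT, the DNA letters of the miR-9 seed, was in 0 of 12, beside 4.23%. The G-quadruplex pattern was in 3 (Ncl and 2 starts of Ubtf), beside 18.6%. All motifs were searched on both strands, and the letters of none contain those of another.

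The genes most like Ncl in length, by the distance of log2 covered lengths over the 3 libraries among 4502 genes, were Tacc3, Snord43, Crim1, Slc38a2 and Rack1. Tacc3 had 2070 bp in TGFB1+miR-9-LOF, 3029 bp in TGFB1 and 2610 bp in Ctrl. Under the name of Snord43, a small nucleolar RNA, the lists held 2024 bp in TGFB1+miR-9-LOF, 3208 bp in TGFB1 and 2730 bp in Ctrl. As with Snord110, a peak so named need not belong to the small RNA itself. Likeness over 3 libraries is a description of lengths only.

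Other genes of the nucleolus and of ribosome assembly were taken from lists by role, with 162 genes in all, of which 140 had a promoter peak in at least 1 library. For TGFB1 over Ctrl, 130 had one in both, 91 were longer in TGFB1 (beside 64.2% of all genes) and 38 shorter, with a median log2 ratio of 0.07, against 0.06 over all genes. By at least 0.32 on the log2 scale, 6 were longer (beside 10.2% of all genes) and 3 shorter (beside 3.04%). Under their names, 5 had a peak in TGFB1 only (beside 8.43% of all genes with a TGFB1 peak), though at 4 of them a peak of another name lay there in Ctrl, and 3 had a peak in Ctrl only (beside 4.88% of all genes with a Ctrl peak). For TGFB1+miR-9-LOF over TGFB1, 102 had a peak in both, and 101 of them were shorter in TGFB1+miR-9-LOF, beside 98.4% of all genes. By at least 0.32 on the log2 scale, 70 of the 102 were shorter, beside 72.8%, and the median log2 ratio was -0.45, against -0.48 over all genes. Of the 135 with a peak in TGFB1, 33 had none under their name in TGFB1+miR-9-LOF, a smaller share than the 46.3% of all genes. At 30 of these 33, no peak of any name lay there. Keeping a peak varied with the TGFB1 score, and the scores of these genes were not set beside those of all genes. Ruvbl2, a chaperone of snoRNP assembly, was the 1 gene of the 102 that was longer in TGFB1+miR-9-LOF, with 2444 bp against 2392 bp in TGFB1. Dcaf13 (1596 bp), Pdcd11 (1262 bp) and Exosc7 (1362 bp) had a peak under their names in TGFB1+miR-9-LOF and not in TGFB1 (beside 4% of all genes with a TGFB1+miR-9-LOF peak), and at all 3 a peak of another name lay there in TGFB1. These 3 fall outside the rule for named genes and are named with their values seen.

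The losses are given by role and by gene name, each to be read beside the 46.3% of all genes that lost their TGFB1 peak. Differences in TGFB1 score between the roles and all genes were not taken into account. The list for Pol I transcription, the role of Ubtf, also holds genes not specific to Pol I, such as Ttf2 and shared polymerase subunits. Of its genes, 9 of 17 were without a peak in TGFB1+miR-9-LOF. Among these 9 were Ttf2 and Baz2a (1843 bp in TGFB1), a subunit of the nucleolar remodelling complex. Of the genes in this list with a peak in both libraries, 8 of 8 were shorter (beside 98.4% of all genes). Taf1a had 1158 bp in TGFB1+miR-9-LOF and 1682 bp in TGFB1, and the Pol I subunit Polr1d had 2110 bp in TGFB1+miR-9-LOF and 2865 bp in TGFB1. In TGFB1 against Ctrl, 4 of 16 were longer by at least 0.32 on the log2 scale (beside 10.2% of all genes), among them Taf1c at 1578 bp in TGFB1 and 1153 bp in Ctrl. Taf1b had a peak in Ctrl only, of 1428 bp. Box C/D and H/ACA snoRNP genes lost 3 of 14 (beside 46.3%), among them Rpap3 and Dkc1, the pseudouridine synthase. Nhp2, another H/ACA protein, had 1175 bp in TGFB1+miR-9-LOF and 1912 bp in TGFB1, a log2 ratio of -0.70. In TGFB1 against Ctrl the largest increase of that group was at Coil, which encodes coilin, the marker of Cajal bodies, with 1389 bp in TGFB1 and 1093 bp in Ctrl.

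Small subunit processome genes lost 6 of 33 (beside 46.3% of all genes), and 20 of the 27 with a peak in both libraries were shorter by at least 0.32 on the log2 scale (beside 72.8%). Wdr43 had 1174 bp in TGFB1+miR-9-LOF and 2137 bp in TGFB1, and Imp4 had 1284 bp in TGFB1+miR-9-LOF and 2297 bp in TGFB1. Wdr3 and Utp18 show the limit of gene names: Wdr3 had no peak under its name in TGFB1+miR-9-LOF and Utp18 none in TGFB1, yet a peak named for a neighbour, Gdap2 or Mbtd1, lay in each place. Large subunit assembly genes lost 7 of 41 (beside 46.3%), with Rsl24d1 at 1058 bp in TGFB1+miR-9-LOF and 1870 bp in TGFB1, and Nvl at 1349 bp in TGFB1+miR-9-LOF and 2323 bp in TGFB1. Rsl1d1 and Nop16, the longest of those 7 in TGFB1, still had a peak of another name in their place. In TGFB1 against Ctrl, Mrto4 had 2436 bp in TGFB1 and 1916 bp in Ctrl, and Gnl3l had 1079 bp in TGFB1 and 2023 bp in Ctrl. Among other nucleolar proteins, 8 of 30 were lost (beside 46.3%), including Top1 (1840 bp in TGFB1), the topoisomerase that relaxes transcribed DNA. The helicase gene Dhx37 had 1018 bp in TGFB1+miR-9-LOF and 1838 bp in TGFB1, and Exosc5, of the RNA exosome, had 1076 bp in TGFB1+miR-9-LOF and 1940 bp in TGFB1. Dhx37, Exosc5 and Rsl24d1 were thus near 1000 bp, the shortest length listed, below which a peak would count as lost.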

How the data were processed

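H3K4me3 was measured by ChIP-seq in MLg cells, with 1 library for each of 3 groups, which the treatment label gives. Tools that the submitters' processing notes name are Trimmomatic, Bowtie2, Picard (1.119), deepTools (3.5.1), MACS3, bedtools, HOMER, and the build is mm10. The study gives broad peak calling with MACS3 for H3K4me3. For an input control, the sources used here give no statement. The authors deposited 1 peak list per library, with each peak's start, end, distance to the nearest TSS, gene name and a score of the authors' own, used here only within a list. The other deposited values are positions and distances in bp.

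Length was end minus start plus 1. Since the shortest peak in any list measured 1000 bp, shorter regions are not listed. For H3K4me3 peaks the study states an extension size of 1000 bp, so an edge given here is that of a called peak. How closely small differences in bp place the mark itself was not tested. The covered promoter length of a gene is the bp under its peaks within 2000 bp of the TSS, and ratios are log2 of that length (Python 3.11.15, pandas 2.3.3, numpy 2.4.6). A call is a log2 ratio of at least 0.32 in size. The steps for covered length, its log2 ratio and merged regions were tested on Ctrl peaks with altered lengths and on a small made-up set. The other steps were not tested in this way. Starts came from GENCODE M21 and sequences from RefSeq, both of the files' build. No test was run, since depth and replicates were not at hand. The members and lists were chosen with earlier results of these data known. All 9 members were named, with the genes closest to Ncl, and from each list of other genes the 2 largest increases and decreases per comparison and the 2 longest lost peaks were eligible, of which the text gives some. Alternatives were a score of at least 50, a distance of at most 1000 bp, the widest peak, centring on the median of all genes, limits of breadth from the merged regions, and other rules for a kept peak.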

Additional observations from a re-analysis of the deposited data

How the results depend on the processing

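No paired analysis was possible because each group has 1 library, and no replicate could be left out. The read depth and the number of libraries limit every length. Centring on the median of all genes turned the TGFB1+miR-9-LOF medians: 0.14 over TGFB1 and 0.20 over Ctrl. In the same order, 5 and 6 members were longer, and 2 and 1 shorter. By at least 0.32 on the log2 scale, 0 were shorter in either, and 1 and 2 were longer. Centring puts the median gene at 0 by construction, and the shares of all genes past 0.32 after it were not computed. Over TGFB1, Fbl became 0.047 and Nop58 0.14, and over Ctrl, Ncl became 0.047 and Fbl 0.045. With a score of at least 50, 4 of 8 members kept a peak in TGFB1+miR-9-LOF (Npm1, Nop58, Nop2 and Nolc1), beside 24.0% of genes. All 4 were shorter than in TGFB1, 1 by at least 0.32 on the log2 scale, and all 4 were shorter than in Ctrl, 0 by that much. The shares of all genes that were shorter were not computed at this score limit. This limit is not equally strict in lists whose scores are not scaled alike. With limits at the median (1828 bp) and the upper quartile (2075 bp) of 9316 merged regions, broad member peaks numbered 1 in TGFB1+miR-9-LOF, 6 in TGFB1 and 3 in Ctrl. Medium ones numbered 2 in TGFB1, and narrow ones 0 in TGFB1 and 1 in Ctrl. The shares of all promoter peaks under these limits were not computed. Within 1000 bp of the TSS, Npm1 and the TGFB1+miR-9-LOF peak of Nop58 dropped out, and 5 of 7 members were kept (51.9% of genes). Under the rule that any peak covers an annotated start, 6 of 9 were kept, without Npm1, Nop58 and Ubtf, beside 47.9% of 8975 protein-coding genes. The rules of the widest peak, of overlap with the TGFB1 peak, and of adding Nop56, chosen after seeing the data, moved no median or count of members by more than 1.5 times.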
